A study of Mus musculus with 15 samples.

Results

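The immediate early response genes described here are Fos, Fosb, Jun, Junb, Egr1, Atf3, Ier2, Zfp36, Dusp1 and Klf6. They were chosen by name as genes that respond to dissection stress, and all 10 were found among the 54752 genes of the deposited count table. RNA was sequenced from kidney tubules of mice in 4 groups. They were proximal convoluted tubules (PCT) of Cldn10a knockout mice (PCT KO, n = 3), PCT of wild-type mice (PCT WT, n = 4), distal convoluted tubules (DCT) of Cldn10a knockout mice (DCT KO, n = 4) and DCT of wild-type mice (DCT WT, n = 4). Cldn10a is an isoform of claudin-10, a tight junction protein, and the study asked what its loss does in the proximal tubule. All mice were killed under 5% isoflurane, kidney slices went into an enzymatic tubule preparation, and each pool held 10 PCT or about 20 DCT of 1 kidney. The mice's age and strain and the kind of knockout allele were not given in the sources used here, and no label says that each library is a separate animal, so the p-values measure the spread between these libraries.

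Immediate early genes are switched on within minutes of a stimulus from transcription factors that the cell already holds, with no need for new protein. Growth factors, calcium, cell stretch and stress reach them through MAP kinases, which act on serum response factor with its ternary complex partners and on CREB. Their transcripts are short-lived, and in kidney as in other tissues they are known to rise during handling and enzymatic dissociation, so they are often read as a record of tissue preparation as well as of signalling in life. The group encodes transcription factors that alter later gene expression and proteins that end the response.

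Promoter sequence was matched in RefSeq (GRCm38.p6) for 8 of the 10 genes. The promoters of Fos, called lower in PCT in both genotypes, of Jun, called lower in PCT in wild type, and of Zfp36 and Dusp1, whose values overlapped between the segments, are shown so that their regulatory sequence can be read beside their values. Each run holds the 250 bases before the RefSeq start, 5′ to 3′ on the gene's strand, and capitals mark motif matches.
Fos: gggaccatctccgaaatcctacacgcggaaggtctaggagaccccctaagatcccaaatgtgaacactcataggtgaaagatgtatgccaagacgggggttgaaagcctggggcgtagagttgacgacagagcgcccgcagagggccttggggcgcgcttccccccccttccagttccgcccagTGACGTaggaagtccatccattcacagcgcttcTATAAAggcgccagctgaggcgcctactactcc
Jun: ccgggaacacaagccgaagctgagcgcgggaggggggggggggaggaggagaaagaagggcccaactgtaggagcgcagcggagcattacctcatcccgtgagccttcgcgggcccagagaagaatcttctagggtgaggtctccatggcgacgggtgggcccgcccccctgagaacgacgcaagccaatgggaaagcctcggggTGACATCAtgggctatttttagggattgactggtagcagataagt
Zfp36: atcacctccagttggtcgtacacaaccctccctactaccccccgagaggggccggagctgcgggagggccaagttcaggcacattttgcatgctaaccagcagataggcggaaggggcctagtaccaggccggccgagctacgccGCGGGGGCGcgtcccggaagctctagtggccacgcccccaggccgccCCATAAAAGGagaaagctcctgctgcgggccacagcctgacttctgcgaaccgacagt
Dusp1: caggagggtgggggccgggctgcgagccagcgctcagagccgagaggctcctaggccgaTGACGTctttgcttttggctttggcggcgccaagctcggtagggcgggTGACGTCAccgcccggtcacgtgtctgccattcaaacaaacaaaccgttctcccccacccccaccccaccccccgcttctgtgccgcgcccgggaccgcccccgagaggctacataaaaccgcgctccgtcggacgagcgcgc
The Fos run is chr12:85473640-85473889 on the plus strand, the Jun run chr4:95052223-95052472 on the minus strand, the Zfp36 run chr7:28379229-28379478 on the minus strand and the Dusp1 run chr17:26508473-26508722 on the minus strand. Positions are counted back from the start. Fos held the CRE core TGACGT at -66 to -61 and the TATA motif TATAAA at -33 to -28. Jun held TGACATCA, an AP-1-like element, at -45 to -38. Zfp36 held GCGNGGGCG, the form bound by EGR proteins, at -105 to -97, and a CArG box, the form bound by serum response factor, at -58 to -49. Dusp1 held TGACGT at -191 to -186 and, on both strands of a palindrome, at -143 to -138 and -141 to -136.

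Of the members whose promoters are not printed, Klf6 held TGACATCA at -119 to -112, Fosb held GCGNGGGCG at -50 to -42 and Atf3 held TGACGT at -8 to -3. Junb held none of the motifs searched, and TGANTCA was in none of the 8 windows. Both strands were searched. Over 32851 promoter windows of the same length, TATAAA was found in 12.4%, TGACGT in 6.47%, TGACATCA in 2.93%, TGANTCA in 6.75%, GCGNGGGCG in 4.70% and a CArG box in 1.47%. A match describes letters in the window and does not mark a bound site.

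The libraries held 28729339 to 51764746 counts. Mitochondrial rRNA took 57.8 to 71.6% of them, and nuclear protein-coding genes took 12.5 to 19.7% in PCT and 8.02 to 11.6% in DCT. The markers of both segments matched the labels, with summed proximal tubule markers at 4300 to 5132 CPM in PCT and 8.42 to 17.3 CPM in DCT, and summed distal convoluted tubule markers at 53.1 to 79.5 CPM in PCT and 2508 to 3369 CPM in DCT. CPM here are counts per 1000000 scaled counts, with 1 scaling of all 15 libraries. Cldn10 itself had 0 counts in all 3 PCT KO libraries and 541 to 1514 counts in the 4 PCT WT libraries. In DCT it had 0 to 24 counts in KO and 3 to 22 counts in WT. These counts are of the whole gene, not of the isoform alone.

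Differences were tested with limma over all genes past a low-count filter, and a gene is called here at a Benjamini-Hochberg adjusted p under 0.05. Between the segments 6 of the 9 members tested were called in the knockout, all lower in PCT, where 20.2% of all genes tested were called higher in DCT. In wild type 6 were called lower and 1 higher in PCT, where 25.1% of all genes tested were called higher in DCT and 23.6% higher in PCT. Fos, Fosb, Egr1, Junb and Ier2 were lower in PCT than in DCT in both genotypes, Klf6 was lower in PCT in the knockout, and in wild type Jun was lower and Zfp36 higher in PCT. Dusp1 was called in neither genotype, and Atf3 did not pass the filter. No member was called between knockout and wild type in either segment.

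Fos is the AP-1 subunit that pairs with Jun proteins. It had 0.418, 0.447 and 0.132 CPM in the PCT KO libraries of replicates 4, 5 and 7, and 0.269, 0.290, 0.208 and 0.432 CPM in the PCT WT libraries of replicates 1, 2, 3 and 6. In DCT it had 6.64, 3.31, 9.23 and 4.61 CPM in KO replicates 5 to 8, and 6.82, 4.67, 3.28 and 2.95 CPM in WT replicates 1 to 4. Every DCT library was above every PCT library, and within each segment KO and WT overlapped. The PCT values rest on 6 to 19 counts per library and the DCT values on 114 to 371. Fos was 18.7-fold lower in PCT KO than in DCT KO (log2 difference -4.23 ± 0.68 SE, limma adjusted p = 1.46e-04) and 13.8-fold lower in PCT WT than in DCT WT (-3.79 ± 0.48, limma adjusted p = 5.51e-06). In the knockout Fos passed the filter through its DCT libraries, so that its call there was partly fixed by the filter.

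Fosb, a close relative of Fos, followed the same order at lower levels. It had 0.446, 0.0994 and 0.0661 CPM in PCT KO, 0.145, 0.104, 0 and 0.296 CPM in PCT WT, 1.63, 1.10, 2.76 and 1.20 CPM in DCT KO, and 3.03, 1.40, 1.39 and 1.26 CPM in DCT WT. The segments did not overlap, but the PCT libraries held only 0 to 16 counts each. The difference was -3.37 ± 0.71 on the log2 scale in the knockout (limma adjusted p = 1.53e-03) and -4.31 ± 0.80 in wild type (limma adjusted p = 2.69e-04). Fosb passed the filter in these fits through its DCT libraries, so that its call was partly fixed by the filter.

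Jun, the AP-1 partner that can also pair with itself, was present in both segments. It had 7.30, 4.25 and 2.36 CPM in PCT KO and 3.35, 5.16, 2.48 and 4.37 CPM in PCT WT, against 7.77, 7.32, 10.8 and 4.45 CPM in DCT KO and 10.2, 10.6, 8.08 and 7.34 CPM in DCT WT. In the knockout the highest PCT library lay above the lowest DCT library, whereas in wild type the segments were apart. In the knockout the difference of -0.81 ± 0.36 was not called (limma adjusted p = 0.0930), and in wild type Jun was 2.44-fold lower in PCT (-1.29 ± 0.21, limma adjusted p = 9.97e-05). In the knockout it was called without PCT KO replicate 4 (-1.18, limma adjusted p = 0.0330) and without DCT KO replicate 8 (-1.02, limma adjusted p = 0.0369).

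Junb, a Jun family member that often restrains Jun, had 0.585, 0.273 and 0.198 CPM in PCT KO, 0.248, 0.249, 0.379 and 0.296 CPM in PCT WT, 1.60, 0.610, 1.44 and 0.623 CPM in DCT KO, and 2.52, 1.88, 0.852 and 0.706 CPM in DCT WT. The segments did not overlap in either genotype, although in the knockout the highest PCT and lowest DCT libraries were close. Junb was 3.04-fold lower in PCT in the knockout (-1.60 ± 0.60, limma adjusted p = 0.0454) and 4.19-fold lower in wild type (-2.07 ± 0.52, limma adjusted p = 3.59e-03). The knockout call ended when any of 5 single libraries was left out, all but DCT KO replicates 6 and 8, with adjusted p of up to 0.179.

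Egr1, a zinc-finger transcription factor of the serum response, had 5.68, 3.63 and 1.63 CPM in PCT KO and 1.90, 1.86, 1.06 and 2.34 CPM in PCT WT, against 12.2, 5.81, 14.9 and 5.95 CPM in DCT KO and 13.6, 11.1, 7.82 and 8.73 CPM in DCT WT. In the knockout the highest PCT library nearly reached the lowest DCT library, and in wild type every PCT library was well under every DCT library. Egr1 was 2.83-fold lower in PCT in the knockout (-1.50 ± 0.43, limma adjusted p = 0.0122) and 5.88-fold lower in wild type (-2.56 ± 0.26, limma adjusted p = 5.22e-07). Without PCT KO replicate 7, its lowest library, the knockout difference was -0.97 and was not called (limma adjusted p = 0.0912).

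Klf6 is a Krüppel-like zinc-finger factor induced by injury and growth signals. It had 6.99, 9.37 and 4.67 CPM in PCT KO, 7.52, 9.70, 8.03 and 9.32 CPM in PCT WT, 12.4, 10.9, 14.7 and 13.4 CPM in DCT KO, and 13.5, 10.1, 8.00 and 8.03 CPM in DCT WT. The segments were apart in the knockout and overlapped in wild type. Klf6 was 1.90-fold lower in PCT in the knockout (-0.92 ± 0.24, limma adjusted p = 5.91e-03), and the wild-type difference was -0.16 ± 0.17, with a 95% interval of -0.52 to 0.20 (limma adjusted p = 0.467).

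Atf3, a stress-induced factor of the ATF/CREB family, was near the limit of detection. It had 2, 0 and 0 counts in PCT KO, 0 in all 4 PCT WT libraries, 2, 0, 29 and 3 counts in DCT KO, and 5, 3, 12 and 8 counts in DCT WT. Against a floor of 3 counts per library in PCT WT, DCT WT was at least 2.90-fold higher. DCT KO replicate 7 held 29 of the 34 counts of its group. Atf3 was the only member that passed the low-count filter in no comparison.

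Ier2, a nuclear protein induced with Fos, had 0.279, 0 and 0.242 CPM in PCT KO, 0.165, 0.0207, 0.284 and 0.0909 CPM in PCT WT, 0.814, 0.581, 0.721 and 0.323 CPM in DCT KO, and 1.2, 0.480, 0.439 and 0.557 CPM in DCT WT. All PCT libraries were under all DCT libraries, at 0 to 15 counts per PCT library. Ier2 too passed the filter through its DCT libraries. The difference was -2.57 ± 0.93 in the knockout (limma adjusted p = 0.0402) and -2.40 ± 0.66 in wild type (limma adjusted p = 6.78e-03). The knockout value ran from -3.33 to -1.10 as single libraries were left out, and its call ended in 6 of those 7 fits, the exception being without DCT KO replicate 8.

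The 2 members that act on the response after it has started had fitted values above 0 in both genotypes, which turned below 0 in the knockout on the libraries whose replicate numbers both segments share. Zfp36 encodes tristetraprolin, which binds AU-rich elements and speeds the decay of short-lived transcripts. It had 15.3, 4.85 and 13.4 CPM in PCT KO and 15.5, 9.03, 8.75 and 12.3 CPM in PCT WT, against 8.82, 5.75, 10.3 and 4.73 CPM in DCT KO and 11.8, 7.89, 5.52 and 5.52 CPM in DCT WT. The segments overlapped in both genotypes. The knockout difference of 0.51 ± 0.37 was not called (limma adjusted p = 0.306), and in wild type Zfp36 was 1.54-fold higher in PCT (0.62 ± 0.23, limma adjusted p = 0.0350). In the knockout the gene was called without PCT KO replicate 5 (1.03, limma adjusted p = 0.00951). The wild-type call ended when PCT WT replicate 1 or 6 or DCT WT replicate 2, 3 or 4 was left out (limma adjusted p = 0.0533 to 0.126).

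Dusp1 encodes the phosphatase that inactivates MAP kinases, the same kinases that induce it. It had 24.8, 14.6 and 13.6 CPM in PCT KO, 30.2, 10.8, 13.3 and 14.7 CPM in PCT WT, 11.5, 10.2, 19.5 and 7.45 CPM in DCT KO, and 12.2, 10.8, 11.6 and 11.4 CPM in DCT WT. It was the member with the highest level in PCT, and the segments overlapped in both genotypes. The difference was 0.58 ± 0.29 in the knockout, with an interval of -0.05 to 1.21 (limma adjusted p = 0.139), and 0.46 ± 0.24 in wild type, with an interval of -0.06 to 0.97 (limma adjusted p = 0.133). It was called in the knockout without DCT KO replicate 7 (0.86, limma adjusted p = 0.0251) and in wild type without PCT WT replicate 2 (0.65, limma adjusted p = 0.0306).

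**Figure D1:**
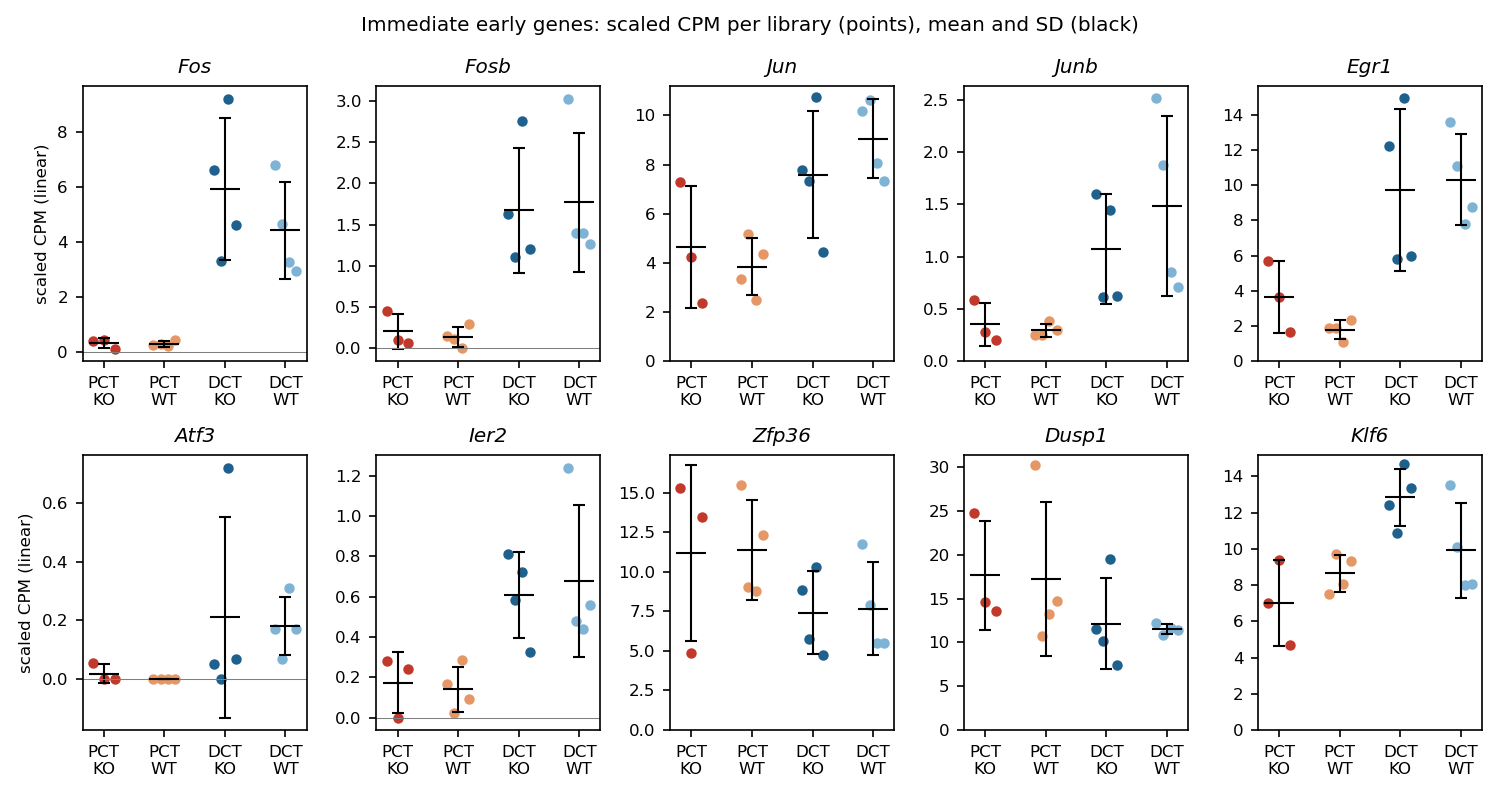
Scaled CPM of each member (1 panel per gene, linear axis) in PCT KO, PCT WT, DCT KO and DCT WT, with a point per library and black bars for the mean and SD (n = 3 in PCT KO and 4 in each other group). Fos, Fosb, Junb, Egr1 and Ier2 lie lower in every PCT library than in every DCT library, whereas Dusp1 and Zfp36 overlap between the segments. How many of all genes lie apart in this way was not counted.

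The counts of members called stand against 13834 genes tested in the knockout, of which 20.4% were called higher in PCT, and 13616 tested in wild type. The members' median log2 difference was -1.50 in the knockout and -2.07 in wild type, and the medians of all genes tested were -0.04 and -0.02. Since a member high only in DCT passes the filter through DCT, these counts describe the members and do not support a direction. The knockout and wild-type comparisons share no library. Fos, Fosb, Junb, Egr1 and Ier2 were called in both. Of these, Fosb and Ier2 passed the filter through DCT in both, and Fos did so in the knockout. How many of all genes tested were called in both was not counted.

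Several other quantities moved with the segment. The pools differed in tubule number, and nuclear protein-coding genes held a smaller share of counts in DCT. Summed thick ascending limb markers were 0.641 to 1.37 CPM in PCT KO, 0.559 to 1.33 CPM in PCT WT, 454 to 599 CPM in DCT KO and 321 to 547 CPM in DCT WT, and all 5 were called lower in PCT in both genotypes, with Cldn16 at 0 in every PCT library. All 5 intercalated cell markers were called lower in PCT too, at a sum of 0.0557 to 0.50 CPM in PCT and 101 to 224 CPM in DCT, with Atp6v0d2 at 0 in PCT. Connecting tubule and principal cell markers, of which Aqp2 was at 0 in PCT, summed to 2.91 to 6.75 CPM in PCT and 59.6 to 100.5 CPM in DCT. Of the 5 of these tested, 3 were called lower in PCT in the knockout, and 3 lower and 1 higher in wild type. Aqp3 averaged 4.21 CPM in PCT KO, 4.58 CPM in PCT WT, 2.11 CPM in DCT KO and 3.65 CPM in DCT WT.

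Endothelial markers summed to 17.4 to 33.6 CPM in PCT KO, 10.9 to 21.2 CPM in PCT WT, 39.3 to 41.8 CPM in DCT KO and 44.8 to 62.2 CPM in DCT WT. None of the 7 was at 0 in any group, and 1 was called lower in PCT in the knockout and all 7 in wild type. Podocyte markers reached 14.5 CPM and immune markers 13.5 CPM in the highest library, and Nphs1 was at 0 in DCT. Fibroblast, pericyte and smooth muscle markers reached 6.62 CPM and erythroid markers 7.22 CPM, both in DCT. The part of cell makeup, pool size and RNA composition in the segment differences was not tested. In these bulk libraries a smaller number of expressing cells and less RNA per cell cannot be told apart.

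The label descriptions carry a number per library with no stated meaning. PCT KO replicate 7 and PCT WT replicate 6 lie in a lower range of these numbers, and all DCT libraries lie in the upper one. Within the upper range 3 members were called between the segments in the knockout, and these were Fos (-3.63), Fosb (-2.83) and Klf6 (-0.64). Fosb passed the filter there through its DCT libraries. The share of all genes called in that knockout fit is not given here, so its count is not compared with that of wild type. In wild type 6 were called, all lower in PCT, Zfp36 having been lost (0.58, limma adjusted p = 0.0689). In that wild-type fit 6612 of 14062 genes tested were called in either direction. The lower range held no DCT library.

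**Figure D2:**
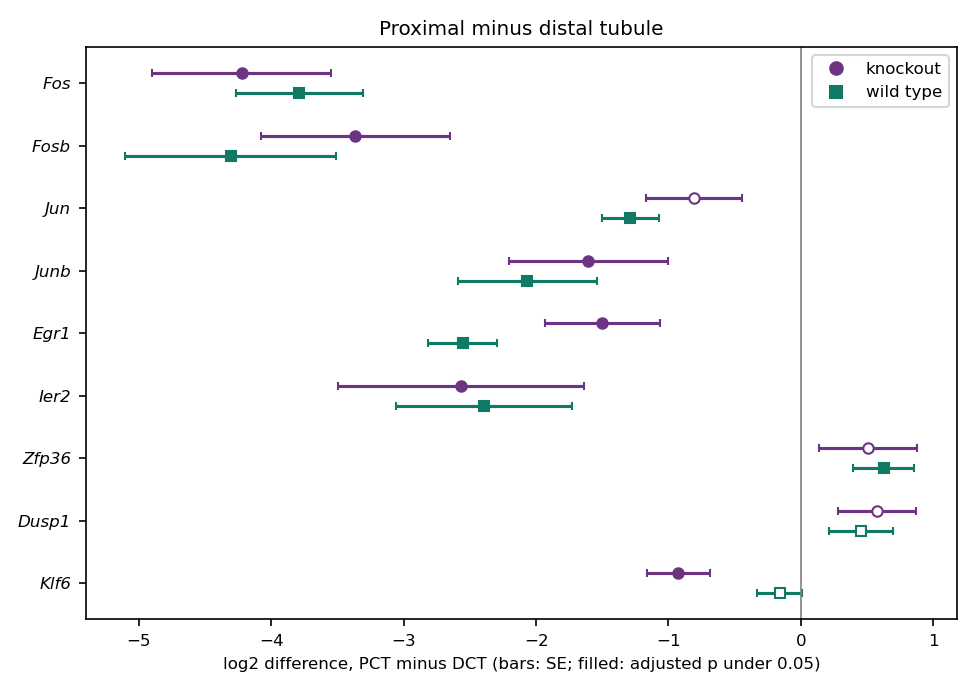
Log2 difference of each tested member, PCT minus DCT, in the knockout (circles) and in wild type (squares), with bars for the SE and filled symbols for a limma adjusted p under 0.05. Fos (-4.23 in the knockout and -3.79 in wild type) and Fosb lie farthest to the left, and Zfp36 and Dusp1 are the members right of 0, of which Zfp36 was called in wild type and Dusp1 in neither genotype.

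Levels were compared between genes per kilobase of exon. In PCT KO, Dusp1 was highest at 5.33 ± 1.87 CPM per kilobase (SD, n = 3), followed by Zfp36 at 3.23 ± 1.61, Klf6 at 1.60 ± 0.54, Jun at 1.45 ± 0.78 and Egr1 at 0.813 ± 0.452. In PCT WT these 5 kept that order, with Dusp1 at 5.21 ± 2.66, Zfp36 at 3.28 ± 0.91, Klf6 at 1.97 ± 0.24, Jun at 1.20 ± 0.37 and Egr1 at 0.400 ± 0.119 CPM per kilobase (SD, n = 4). In PCT KO, Klf6 and Jun, and Jun and Egr1, differed by less than the larger of their SDs, as did Dusp1 and Zfp36 in PCT WT. Junb, Fos, Ier2 and Fosb were at or under 0.153 CPM per kilobase on average in both PCT groups, and the neighbours Junb, Fos, Ier2 and Fosb were within their spread.

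In DCT the upper members were close together. In DCT KO the mean levels per kilobase ran through Dusp1 (3.67), Klf6 (2.92), Fos (2.53), Jun (2.38), Egr1 (2.17) and Zfp36 (2.13), and each neighbouring pair was within its spread. In DCT WT, Dusp1 at 3.48 ± 0.17 CPM per kilobase (SD, n = 4) stood above Jun at 2.84 ± 0.50, and Jun, Egr1, Klf6, Zfp36 and Fos (2.84 to 1.88) were within their spread of their neighbours. Junb (0.465 in KO and 0.646 in WT), Ier2 (0.401 and 0.446), Fosb (0.268 and 0.284) and Atf3 (0.0978 and 0.0838) were lowest in both DCT groups. Fos was thus 7th in PCT KO and 6th in PCT WT, and 3rd in DCT KO and 6th in DCT WT.

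The loss of claudin-10a was addressed by comparing knockout with wild type inside each segment. In PCT none of the 8 members tested with limma was called. Among 13229 genes 0.166% were called, and 976 had an unadjusted p under 0.05, none of them a member. Egr1 came closest, with a mean of 3.65 ± 2.03 CPM in PCT KO (SD, n = 3) and 1.79 ± 0.53 CPM in PCT WT (SD, n = 4). Its log2 difference was 0.86 ± 0.40, with an interval of -0.01 to 1.73 (limma unadjusted p = 0.0526, adjusted p = 0.682). PCT KO replicates 4 and 5 were above all PCT WT libraries and replicate 7 was below 3 of them. In the upper number range alone Egr1 differed by 1.53 on the log2 scale (limma adjusted p = 0.125), and without PCT KO replicate 4 by 0.46.

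The other members had smaller differences in PCT. Klf6 had a mean of 7.01 ± 2.35 CPM in PCT KO and 8.64 ± 1.03 CPM in PCT WT (SD, n = 3 and 4), a difference of -0.37 ± 0.23 with an interval of -0.86 to 0.12 (limma adjusted p = 0.769). In the upper number range its difference was -0.05. Zfp36 (-0.16), Jun (0.14), Dusp1 (0.08), Junb (0.06) and Fos (-0.03) were closer to 0, and the intervals of Fos (-1.38 to 1.32) and Ier2 (-2.99 to 2.44) were wide. In the upper number range alone Fos differed by 0.76 and Jun by 0.65, neither called. Fosb and Atf3 did not pass the filter in this comparison.

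In DCT none of the 9 members tested was called, and among 12968 genes 0% were called with limma, where 925 had an unadjusted p under 0.05. The lowest adjusted p over all genes was 0.524. Klf6 was the only member with an unadjusted p under 0.05. It had a mean of 12.8 ± 1.6 CPM in DCT KO and 9.91 ± 2.61 CPM in DCT WT (SD, n = 4 each), a difference of 0.42 ± 0.17 with an interval of 0.06 to 0.79 (limma unadjusted p = 0.0237, adjusted p = 0.678). All 4 DCT KO libraries were above 3 of the DCT WT libraries, and only DCT WT replicate 1 lay among them. Fos had a mean of 5.95 ± 2.58 CPM in DCT KO and 4.43 ± 1.76 CPM in DCT WT, with a difference of 0.45 ± 0.28 and an interval of -0.14 to 1.05 (limma adjusted p = 0.749). The Fos difference ran from 0.21 to 0.68 as single libraries were left out.

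Junb (-0.35), Jun (-0.31), Egr1 (-0.16), Ier2 (-0.04), Zfp36 (-0.02), Dusp1 (-0.01) and Fosb (-0.005) had fitted values at or under 0 in DCT, none called. As single libraries were left out, Junb ran from -0.67 to -0.10 and Jun from -0.51 to -0.06. Their intervals bound the size of a change. For Dusp1 it ran from -0.45 to 0.43, for Zfp36 from -0.54 to 0.50 and for Egr1 from -0.69 to 0.37, while for Ier2 it ran from -0.99 to 0.90. The sign of the authors' deposited PCT table was read from Cldn10. The DCT sign was assumed to be the same, since Cldn10 gave none there (log2 fold change 0.0363). No member had an adjusted p under 0.05 in these tables, and 1 member in PCT and 4 in DCT had no adjusted p. The authors' deposited table gave Egr1 in PCT a log2 fold change of 1.01 (p = 0.0106, adjusted p = 0.377), and the authors' deposited table for DCT gave Klf6 0.379 (p = 0.0429, adjusted p = 0.57).

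Whether the knockout effect itself differed between the segments was tested as an interaction over all 15 libraries. None of the 9 members tested was called, and of 15279 genes 0% were called with limma, where 849 had an unadjusted p under 0.05. With limma-trend 5 genes were called, none of them a member. Klf6 had the lowest unadjusted p among the members, with an effect in PCT minus that in DCT of -0.78 ± 0.29 and an interval of -1.39 to -0.17 (limma unadjusted p = 0.0142, adjusted p = 0.763). It was lower in the knockout in PCT and higher in DCT, and neither difference was called. Egr1 had the opposite sign, at 1.03 ± 0.54 with an interval of -0.10 to 2.16 (limma unadjusted p = 0.0710, adjusted p = 0.931). The remaining members ran from -0.46 for Fos to 0.91 for Fosb.

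**Figure D3:**
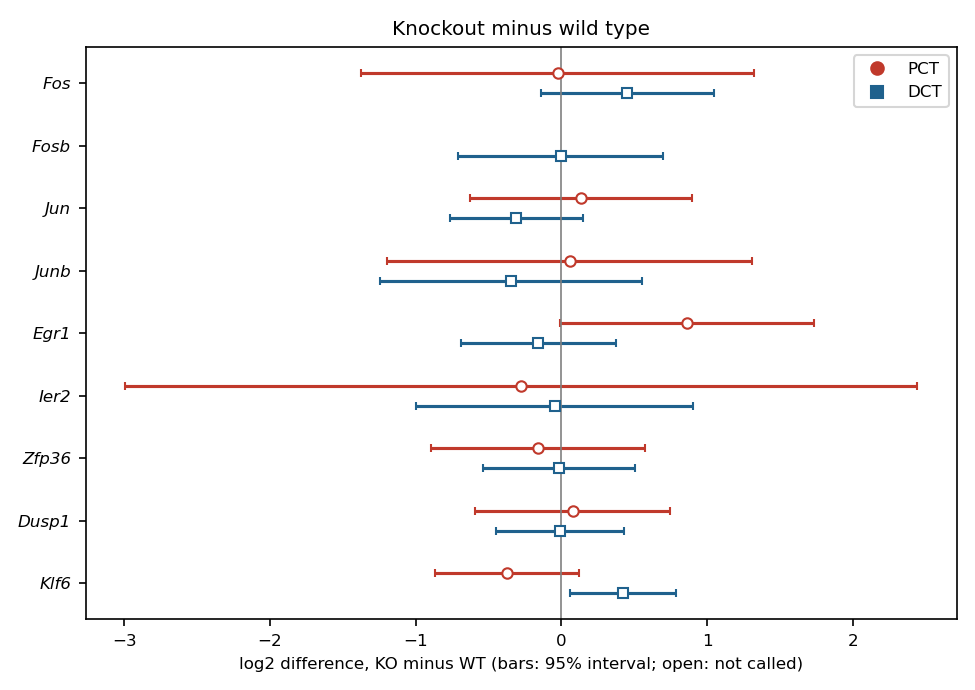
Log2 difference of each tested member, KO minus WT, in PCT (circles) and in DCT (squares), with bars for the 95% interval and open symbols because no difference was called. The interval of Klf6 in DCT (0.06 to 0.79) excludes 0 before adjustment, that of Egr1 in PCT (-0.01 to 1.73) reaches it, and that of Ier2 in PCT is widest.

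The spread between libraries of a group was set beside the counting error. The coefficient of variation of Egr1 was 55.6% in PCT KO, 29.8% in PCT WT, 47.1% in DCT KO and 25.2% in DCT WT, where counting alone gives 8.41%, 10.8%, 5.12% and 5.01%. Fos in DCT had 43.4% in KO and 39.7% in WT, against 6.53% and 7.74% from counting. Junb in PCT WT had 21.1%, under the 26.5% that counting alone gives. Dusp1 had 35.1% in PCT KO, 51.1% in PCT WT, 42.5% in DCT KO and 4.97% in DCT WT, where counting alone gives 4.70%. The counting values, and the floor used for Atf3, take in counting error alone, because PCR copies cannot be told from separate molecules here.

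In 3 libraries all 9 members past the filter were above their group means. How many of all genes were above their group means in these libraries was not counted, so this describes the members alone. The mean deviation in log2 CPM was 0.81 in PCT KO replicate 4, 0.59 in DCT KO replicate 7 and 0.60 in DCT WT replicate 1. In DCT KO replicate 8 it was -0.50. In the other PCT libraries the members went both ways. In PCT KO replicate 5, Fos deviated by 0.59 and Zfp36 by -1.04, and in PCT KO replicate 7 Fos deviated by -1.09 and Zfp36 by 0.43. The means in PCT rest in part on members at few counts, as in PCT WT replicate 3 (mean -0.43), where Fosb had 0 counts and deviated by -3.16 while Ier2 deviated by 1.38. DCT KO replicate 7 and DCT WT replicate 1 also had the highest share of mitochondrial rRNA in their groups, 71.5% and 71.6%, while PCT KO replicate 4 had 61.6%, the middle value of its group. PCT KO replicate 4 also had the highest sum of immune markers, 13.5 CPM, and the other PCT libraries had 0.795 to 3.35 CPM. In PCT KO this sum was mostly Cd74 (mean 2.73 CPM) and H2-Aa (mean 2.58 CPM). Ptprc was next at a mean of 0.0836 CPM, and every other immune marker was lower. The parts of the mitochondrial rRNA share and of the immune markers in these deviations were not tested. Summed over all 10 members, DCT KO replicate 7 had 85.0 CPM and DCT WT replicate 1 had 75.1 CPM, and the other DCT libraries had 42.8 to 63.5 CPM. In PCT the highest sums were 61.8 CPM in KO replicate 4 and 59.3 CPM in WT replicate 1, where Dusp1 and Zfp36 were high, and the others had 34.5 to 44.2 CPM.

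**Figure D4:**
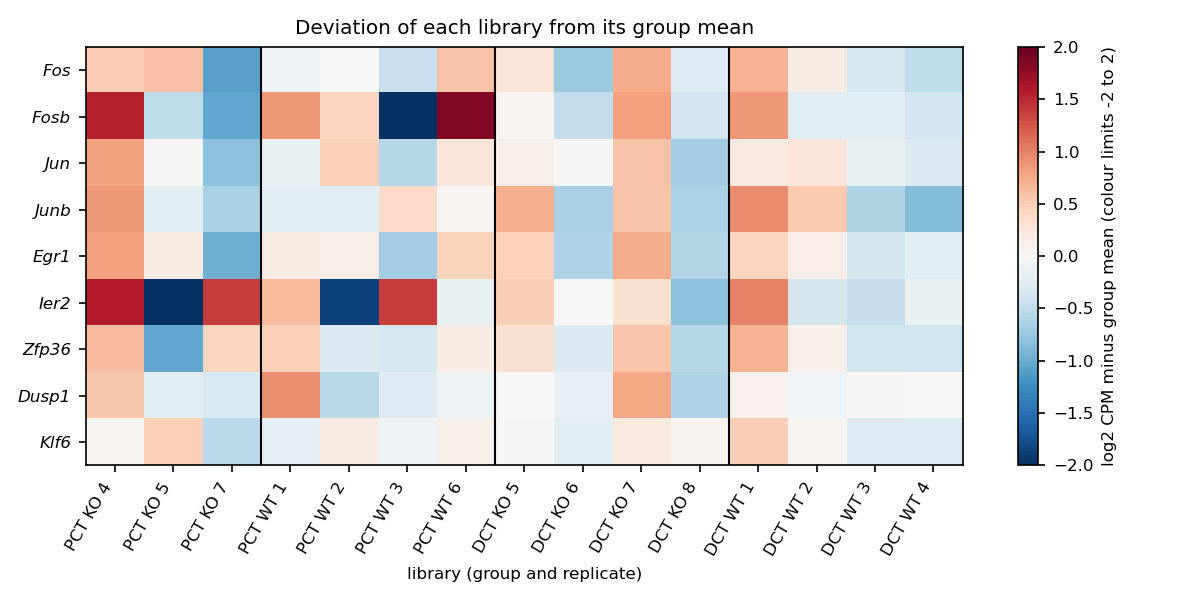
Log2 CPM of each member minus its group mean (colour, limits -2 to 2) in every library, with vertical lines between the groups. PCT KO replicate 4, DCT KO replicate 7 and DCT WT replicate 1 are red in nearly every row, with mean deviations of 0.81, 0.59 and 0.60, and Ier2 and Fosb in PCT, at 0 to 16 counts per library, change most. How many of all genes lie above their group means in these libraries was not counted.

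Pairs of members were correlated across the 8 DCT libraries for Fos and across the 7 PCT libraries for Dusp1, 10 relations in all, chosen after the values had been seen. In DCT, Fos correlated with Klf6 (Pearson r = 0.851, exact permutation p = 0.00977, adjusted p = 0.0489; Spearman rho = 0.857, exact permutation p = 0.0107, adjusted p = 0.0698) and with Fosb (Pearson r = 0.827, exact permutation p = 0.00761, adjusted p = 0.0489; Spearman rho = 0.786, exact permutation p = 0.0279, adjusted p = 0.0698). Without the 2 libraries farthest from the median of Fos, DCT KO replicate 7 and DCT WT replicate 4, r was 0.731 for Klf6 and 0.742 for Fosb. Fos with Zfp36 (r = 0.832, exact permutation adjusted p = 0.0549) and with Egr1 (r = 0.781, exact permutation adjusted p = 0.0711) missed the threshold after adjustment, and Jun (r = 0.429) and Dusp1 (r = 0.566) did so before it. Both genotypes enter these values. In PCT, Dusp1 passed with none of Jun (r = 0.242), Egr1 (0.422), Zfp36 (0.564) and Klf6 (-0.192), and its r with Zfp36 was -0.0910 without PCT WT replicate 1 and PCT KO replicate 4.

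Other genes were ranked by how closely their deviations from the group means followed the members' mean deviation over the 15 libraries. The libraries share depth and composition effects, so r is given as a description, and in PCT the members' mean takes in Fosb and Ier2 at few counts. Of 4282 genes with a mean of at least 5 CPM, for which the median r was -0.04, the 8 most alike were Slc27a1 (r = 0.922), Gstt2 (0.865), Clcc1 (0.844), Pygl (0.841), Rbm3 (0.841), Nampt (0.83), Mtss1 (0.808) and Scaper (0.803). Slc27a1 encodes a fatty acid transporter, Nampt the enzyme that makes the NAD precursor nicotinamide mononucleotide, and Rbm3 a cold-inducible RNA-binding protein. Pygl, liver glycogen phosphorylase, averaged 0 CPM in both PCT groups, so its r rests on DCT. Among the 8 least alike were Ndrg3 (r = -0.909), Ganab (-0.877), Bicc1 (-0.876), Itga6 (-0.862), Kpna6 (-0.856), Fkbp4 (-0.856) and Cstf2 (-0.852). Among 8 gene lists with members at this level the median r ran from -0.33 (9 hypoxia genes) to 0.28 (4 glucocorticoid-responsive genes), with 0.18 for 13 other immediate early genes and -0.25 for 11 heat shock genes.

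A list of 51 other immediate early genes was set beside the members. In the knockout 38 were tested, and 6 were called higher and 14 lower in PCT, with a median log2 difference of -0.71 against -0.04 for all genes tested. In wild type 6 were called higher and 20 lower of 41 tested, with a median of -1.14 against -0.02. Errfi1, a feedback inhibitor of the EGF receptor, averaged 190 ± 33 CPM in PCT KO, 150 ± 37 CPM in PCT WT, 12.3 ± 2.0 CPM in DCT KO and 12.2 ± 3.4 CPM in DCT WT (SD, n = 3 in PCT KO and 4 in the others). It was higher in PCT in the knockout (3.96, limma adjusted p = 1.59e-09) and in wild type (3.64, limma adjusted p = 7.80e-10). Klf9, a glucocorticoid-induced Krüppel-like factor, was higher in PCT in wild type (1.57, limma adjusted p = 1.52e-07).

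Lower in PCT were Btg1 and Btg2, antiproliferative factors, and Ier3, a regulator of ERK signalling. In the knockout Btg1 differed by -2.47 (limma adjusted p = 3.41e-06), Btg2 by -4.13 (limma adjusted p = 2.26e-06) and Ier3 by -5.46 (limma adjusted p = 1.22e-05). Hes1, the Notch target, averaged 0.582 ± 0.239 CPM in PCT WT and 5.77 ± 1.07 CPM in DCT WT (SD, n = 4 each), a difference of -3.40 (limma adjusted p = 4.74e-07). The list thus held genes of both directions.

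Among 28 regulators that act upstream of immediate early genes, 2 were called higher and 2 lower in PCT in the knockout (median -0.13), and 4 higher and 8 lower in wild type (median -0.05). Egfr, the EGF receptor, averaged 27.6 ± 11.7 CPM in PCT KO, 31.1 ± 5.9 CPM in PCT WT, 4.03 ± 1.05 CPM in DCT KO and 2.92 ± 1.11 CPM in DCT WT, and was higher in PCT in the knockout (2.73, limma adjusted p = 3.68e-06) and in wild type (3.42, limma adjusted p = 8.90e-09). Mapk14, the p38 alpha kinase, was higher in PCT as well (1.8 in the knockout, limma adjusted p = 1.25e-05, and 1.62 in wild type, limma adjusted p = 6.61e-06). Elk3, a ternary complex factor, was lower in PCT (-1.87 in the knockout, limma adjusted p = 2.89e-04, and -2.85 in wild type, limma adjusted p = 5.06e-06), as was Map2k1, the kinase MEK1, in the knockout (-1.29, limma adjusted p = 2.35e-04).

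Of the MAPK feedback regulators, 17 were tested in each genotype. In the knockout 3 were called higher and 4 lower in PCT (median -0.06), and in wild type 4 higher and 7 lower (median -0.40). Errfi1 and Ier3 belong to this list too. Lrig1, which promotes turnover of EGF family receptors, was higher in PCT in the knockout (3.25, limma adjusted p = 7.95e-05), and Spred1, an inhibitor of RAF activation, was lower in PCT in wild type (-1.39, limma adjusted p = 3.11e-07). Dusp10, a phosphatase of p38 and JNK, averaged 0 CPM in both PCT groups, 0.499 ± 0.133 CPM in DCT KO and 0.666 ± 0.208 CPM in DCT WT (SD, n = 4 each). Dusp10 passed the filter through DCT, so that its calls in both genotypes were partly fixed by the filter. Spry2, an ERK feedback inhibitor, had the lowest p for knockout against wild type in PCT on this list (1.39, limma adjusted p = 0.366), not called.

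The heat shock genes, which respond to misfolded protein, held both directions. In the knockout 5 were called higher and 6 lower in PCT of 17 tested (median -0.03), and in wild type 4 higher and 7 lower of 17 (median -0.22). The inducible HSP70 genes Hspa1a and Hspa1b were lower in PCT. Hspa1a averaged 0.547 ± 0.132 CPM in PCT WT and 5.38 ± 1.35 CPM in DCT WT (-3.32, limma adjusted p = 5.70e-07), and Hspa1b differed by -3.53 in the knockout (limma adjusted p = 3.98e-05) and by -3.69 in wild type (limma adjusted p = 1.44e-06). These 2 genes are near-identical copies, so counts could be split between them. Among those higher in PCT were the mitochondrial chaperonin Hspd1 (1.76 in the knockout, limma adjusted p = 3.49e-07, and 1.43 in wild type, limma adjusted p = 5.88e-08) and the constitutive HSC70 gene Hspa8 (1.55 in the knockout, limma adjusted p = 1.58e-06).

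Of 12 glucocorticoid-responsive genes, 2 were called higher and 4 lower in PCT in the knockout of 10 tested (median -1.26), and 2 higher and 4 lower in wild type of 11 tested (median -1.22). Nr3c1, the glucocorticoid receptor, was higher in PCT (2.03 in the knockout, limma adjusted p = 1.84e-05, and 1.99 in wild type, limma adjusted p = 5.28e-09), whereas the metallothionein Mt1 was lower (-4.91 in the knockout, limma adjusted p = 2.73e-07, and -3.61 in wild type, limma adjusted p = 1.21e-08). Of the integrated stress response and ER stress genes, 4 were called higher and 4 lower of 15 in the knockout (median 0.04), and 1 higher and 4 lower of 15 in wild type (median -0.15). Herpud1, an ER-associated degradation factor, was higher in PCT (1.58 in wild type, limma adjusted p = 1.59e-04), and Ddit4, an inhibitor of mTORC1, was lower (-2.78 in wild type, limma adjusted p = 6.77e-05).

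Of the hypoxia genes, 3 were called higher and 5 lower of 12 in the knockout (median -0.55), and 3 higher and 7 lower of 12 in wild type (median -0.52). Pdk1, pyruvate dehydrogenase kinase, differed by -4.77 in wild type (limma adjusted p = 4.37e-11) and Ndrg1 by 3.40 (limma adjusted p = 5.23e-08). Of the tubular injury genes, 1 was called higher and 5 lower of 9 in the knockout (median -2.60), and 1 higher and 4 lower of 8 in wild type (median -1.44). Myc averaged 0.958 ± 0.319 CPM in PCT WT and 0.0268 ± 0.0535 CPM in DCT WT (SD, n = 4 each), and passed the filter through PCT. Clu, clusterin, averaged 0.155 ± 0.117 CPM in PCT WT and 269 ± 49 CPM in DCT WT (SD, n = 4 each), and passed it through DCT. Of the NF-kB and cytokine genes, 1 was called higher and 2 lower of 7 in the knockout (median -0.71), and 1 higher and 4 lower of 6 in wild type (median -1.17). In wild type Nfkb1 was lower (-1.94, limma adjusted p = 1.54e-04) and Icam1 higher (1.54, limma adjusted p = 0.0349). Icam1 averaged 0.527 ± 0.112 CPM in PCT WT and 0.193 ± 0.127 CPM in DCT WT (SD, n = 4 each). It passed the filter through PCT, so that its call was partly fixed by the filter.

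No gene of these 9 lists was called with limma between knockout and wild type in PCT or DCT, or for the interaction. In PCT the lowest adjusted p on any list was that of Spp1, osteopontin, which differed by -1.23 (limma adjusted p = 0.131), and in DCT that of Nab1, a corepressor of EGR proteins, which differed by 0.81 (limma adjusted p = 0.582). The lists overlap in genes such as Errfi1, Ier3, Klf9, Ddit4 and Myc, so their counts are not independent.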

How the data were processed

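Per the labels' protocols, a micro column kit gave the RNA and Nextera XT the libraries. The submitters' processing notes name CASAVA 1.8, STAR 2.5, DESeq2 1.24.0 and the build GRCm38. How reads were counted, with which annotation release and strand setting, was not given in the sources used here. Antisense genes and near-identical copies are therefore uncertain.

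The authors deposited whole-number counts per gene and library, which were used as such. The layout of that deposited file was not recognised as counts by the unit check, so its unit is recorded as other, and limma 3.58.1 (R 4.3.3) took the place of the planned quasi-likelihood count test. The authors' deposited tables of log2 fold changes and p-values, likewise recorded as other, were used only where named. Gene names came from GENCODE M21, which matched 54723 of 54752 IDs, and 24945 genes had no count.

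Library sizes were scaled by trimmed means of M values, with 30% of the log ratios and 5% of the intensities left out. The low-count filter asked for a scaled count of about 10 in a number of libraries equal to the smaller group, and for 15 counts in total. voom weights were used on log2 CPM with a prior count of 0.5. Only the groups of a comparison entered its fit, except for the interaction. The p-values were adjusted over all genes tested, and the pipeline was tested on simulated data. Correlations used exact two-sided permutation tests. Replicates of a group correlated at 0.913 to 0.943 (Pearson r of log2 values), with no copies among them.

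The members, gene lists, markers, tests and alternatives were chosen with earlier results of these data known. All members were named. From each list and comparison up to 4 called genes with the smallest p could be named, or up to 2 uncalled ones. Genes most like the members were the 8 with the highest and the 8 with the lowest r, predicted genes left out, and a gene among those with the lowest is not reported here. Nothing was imputed.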

Additional observations from a re-analysis of the deposited data

Results flagged for a closer look

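Within groups of 4 libraries, 29 sets of member values were checked for a library far from the others, and 3 stood out. Chance gives about 1 in 20 such groups. Fosb had 3.03 CPM in DCT WT replicate 1, and the other DCT WT libraries had 1.26 to 1.40 CPM. Ier2 had 1.2 CPM in the same library, and the other DCT WT libraries had 0.439 to 0.557 CPM. Atf3 had 0.721 CPM in DCT KO replicate 7, from 29 counts, and the other DCT KO libraries had 0 to 0.0692 CPM.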

How the results depend on the processing

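The DESeq2 alternative was not run. Median-of-ratios scaling and a library size of nuclear protein-coding genes kept every count of called members, and no scaling moved the median of all genes by over 0.1. No member was called for KO against WT, or for the interaction, under any alternative run. Between segments 3 to 7 members were called in the knockout as single libraries were left out, with 3 without PCT KO replicate 7 and 4 without DCT KO replicate 5, and in wild type 6 to 8. The share of all genes called in these knockout fits is not given here. With no filter 4 were called in the knockout, Junb and Ier2 being lost (adjusted p = 0.0721 and 0.0548), and with quality weights Ier2 was lost (adjusted p = 0.0679). Atf3 entered the fits with no filter. It was called lower in PCT in wild type (-4.02, limma adjusted p = 5.81e-05), where every PCT library held 0 counts. In the knockout Atf3 was not called (-1.94, limma adjusted p = 0.252). Jun was gained in the knockout in 1 fit of 15 libraries (adjusted p = 0.0487). With replicate numbers as a block, on the libraries whose numbers both segments share, 6 members were called in the knockout and 6 in wild type, and without the block on the same libraries 5 and 6. The fits of those libraries without the block were added after seeing the data. In wild type 5830 of 13644 genes tested were called with the block and 6192 without it. Under the replicate block the Klf6 call in the knockout (-0.98, adjusted p = 0.125) and the Zfp36 call in wild type (0.41, adjusted p = 0.0559) were lost and Jun in the knockout was gained (-1.48, adjusted p = 0.0227), and on the same libraries without it Klf6 (-0.99, adjusted p = 0.0885) and Zfp36 (0.45, adjusted p = 0.197) were lost and Jun was gained (-1.50, adjusted p = 0.0235) as well. Same-numbered libraries did not deviate together (r of -0.0704 and -0.124 in the knockout, and 5.81e-07, -0.0224 and 0.0231 in wild type). The labels do not say what the replicate numbers mark, so these values cannot tell whether same-numbered libraries share an animal. Zfp36 was called in the knockout with quality weights (0.78, adjusted p = 0.0497), and in wild type was not called with no filter, with limma-trend or in 1 fit of 15 libraries (adjusted p = 0.0612, 0.0679 and 0.111). Between segments in the knockout, Dusp1 turned to -0.0527 and Zfp36 to -0.15 with the replicate block, and to -0.0489 and -0.19 without it on the same libraries. Other reversals were of values not called. For KO against WT in PCT, Fos was 0.0207 with limma-trend, 0.15 with the number range as a term and 0.76 in the upper range. Zfp36 was 0.19 and Ier2 0.81 with quality weights, and Ier2 was 0.0268 with limma-trend and 0.12 with the mitochondrial rRNA share as a covariate. In DCT, Zfp36 was 0.00979 and Ier2 0.0736 with quality weights. For the interaction, Zfp36 was 0.17 and Ier2 0.72 with quality weights, and Ier2 0.13 with limma-trend. As single libraries were left out, KO minus WT in PCT ran from -0.36 to 0.57 for Fos, -0.21 to 0.38 for Dusp1, -0.47 to 0.36 for Zfp36, -0.26 to 0.56 for Jun, -0.35 to 0.39 for Junb and -1.11 to 1.20 for Ier2. In DCT it ran from -0.28 to 0.22 for Fosb, -0.27 to 0.20 for Dusp1, -0.41 to 0.0466 for Egr1, -0.20 to 0.18 for Zfp36 and -0.21 to 0.26 for Ier2. The interaction ran from -0.21 to 1.51 for Fosb, -0.78 to 0.12 for Fos, -0.17 to 0.41 for Dusp1, -0.42 to 0.39 for Zfp36 and -0.98 to 1.28 for Ier2. Causes were not tested. Atf3, Fosb and Ier2 had the fewest counts of the members in PCT, at 0 to 16 per library.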
